A study of Mus musculus with 7 samples.

Results

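The genes described here encode molecular chaperones and folding enzymes of the cytosol, the mitochondria and the endoplasmic reticulum (ER). They were written as 41 gene symbols, 17 for the cytosol, 6 for the mitochondria and 18 for the ER, and were measured in natural killer (NK) cell preparations with and without interleukin 2 (IL2). A member was kept when a probe carried its symbol and no other, and where a gene had several such probes the brightest over all arrays was used. This gave 39 members of the 19752 genes tested, namely 16 cytosolic, 6 mitochondrial and 17 ER genes. The cytosolic gene Hsp90ab1 was not analysed here, and the ER gene Ero1l is not among the 39 because the annotation lists it as Ero1a, whose values are given with the further ER genes. The cells came from spleens of male C57BL/6 mice aged 6 weeks, were labelled NK1.1 by phenotype, and had been enriched by EasySep negative selection, in which unwanted cells are tagged and removed. Culture lasted 8 h, either with IL2 (250 U/ml; 4 arrays, replicates 1 to 4) or without cytokine (3 arrays, replicates 2 to 4), and all arrays shared strain, sex, age and culture time. Each sample was run on an Affymetrix Mouse Gene 1.0 ST array, which reads a transcript with many short probes summarised to 1 value, here called a probe. No label says whether replicates were separate mice or cultures, so a p-value here reflects the spread among these samples alone, which may be technical.

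Chaperones bind unfolded protein and let it fold. In the cytosol the ring-shaped chaperonin TRiC/CCT folds actin, tubulin and other substrates, while HSP70 and HSP90 work in cycles of ATP binding with J-domain and other co-chaperones. Mitochondria hold their own HSP70, HSP90 and a chaperonin of HSP60 and HSP10, and the ER pairs an HSP70 (BiP) and an HSP90 (GRP94) with lectin chaperones and disulfide isomerases. Heat shock factors drive many cytosolic and mitochondrial chaperone genes, and the unfolded protein response, through ATF6, XBP1 and ATF4, drives many of those of the ER. Activated lymphocytes enlarge and secrete cytokines and granule proteins, which load these pathways.

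All values are log2 intensities, and differences are IL2 minus untreated. A gene is said to have risen or fallen when limma's Benjamini-Hochberg adjusted p over all genes was under 0.05. This was so for 410 genes higher (2.08%) and 178 lower (0.901%), so that 69.7% of the calls were higher, against 53.8% of the calls after quantile normalization again. The median intensity per array ran from 121.3 to 131.0. The enrichment was not complete by marker genes. Of 8 NK cell markers 4 rose and 0 fell, and their summed intensity was 5279 to 8530 in untreated and 18872 to 23546 in IL2 arrays. Of 8 macrophage and monocyte markers 5 fell, with sums of 10800 to 11918 and 3569 to 5041, and of 8 neutrophil markers 1 fell (8380 to 11506 and 4841 to 6850). At an unadjusted limma p under 0.05, 7 of the neutrophil markers were lower, and their median log2 fold change was -0.80. Of 5 B cell markers 0 were called by limma, with 2 lower at an unadjusted p under 0.05, and they were bright in both groups (12619 to 13992 and 11198 to 11856). The part of these shifts in the chaperone values below was not tested. In such a mixed sample, fewer cells of a type and less RNA per cell cannot be told apart.

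Every one of the 39 chaperone genes had a positive log2 fold change, as did 45.5% of all genes. Of these, 8 rose and 0 fell: the cytosolic genes Stip1, Cct6a and Hsp90aa1, the mitochondrial gene Hspd1, and the ER genes Sdf2l1, Hspa5, Pdia4 and Manf. The other 31 did not pass the test. The median log2 fold change was 0.58 for the cytosolic, 0.52 for the mitochondrial and 0.68 for the ER genes, beside -0.01 over all genes, and the intervals of single members of the 3 groups overlapped widely. For 26 of the 39 every IL2 array lay above every untreated array (10 of 16 cytosolic, 3 of 6 mitochondrial and 13 of 17 ER), as it did for 6.25% of all genes, and the reverse order held for 0 members and 3.36% of all genes. At an unadjusted limma p under 0.05, 31 members were higher and 0 lower, against 8.81% and 4.67% of all genes. At an adjusted p under 0.1, a count added after the values were seen, it was 22 members against 3.14% of all genes. The members are bright genes, and the 5862 genes at least as bright as the dimmest of them give higher shares. Of these, 5.42% rose and 1.93% fell, and 7.97% were higher at an adjusted p under 0.1. All IL2 arrays were above in 14.8% and below in 6.21%, 20.9% were higher and 8.27% lower at the unadjusted p, and 64.6% had a positive log2 fold change.

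**Figure D1:**
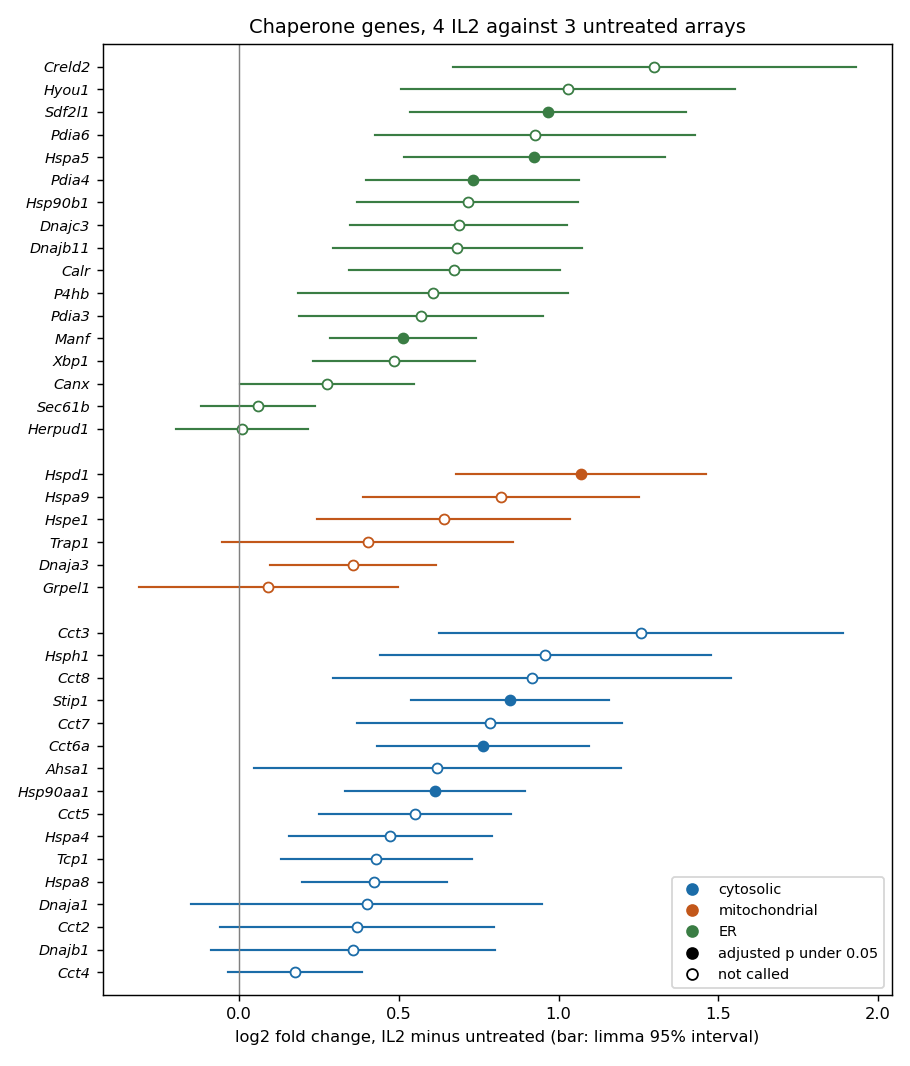
Log2 fold change (IL2 minus untreated, 4 against 3 arrays) of each of the 39 chaperone genes, grouped by compartment, with the 95% interval of the limma fit; filled points have a Benjamini-Hochberg adjusted p under 0.05. All points lie to the right of 0, from 0.01 for Herpud1 to 1.30 for Creld2, and 8 are filled.

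The number of calls rested on single arrays. It was 0 without IL2 replicate 2, 3 or 4, 1 (Hspd1) without untreated replicate 4 and 2 (Hsp90aa1 and Stip1) without untreated replicate 3. It was 9 when untreated replicate 2 was left out and 21 when IL2 replicate 1 was. Over all genes the share called higher was 0.678% to 0.805% without IL2 replicate 2, 3 or 4, 0.82% and 0.901% without untreated replicate 4 and 3, 2.14% without untreated replicate 2, and 2.62% when IL2 replicate 1 was left out. The list medians moved less, to between 0.45 and 0.66 for the cytosolic, 0.43 and 0.63 for the mitochondrial and 0.54 and 0.77 for the ER genes with each array left out in turn. All 39 fold changes stayed positive when arrays were centred on their medians, and 36 did after quantile normalization again, where Herpud1, Sec61b and Grpel1 turned. That normalization gave lower list medians, 0.46 for the cytosolic, 0.40 for the mitochondrial and 0.57 for the ER genes.

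The 8 subunits of the chaperonin TRiC/CCT, which are encoded by separate genes and assemble into a ring of different subunits, had a median log2 fold change of 0.66. Cct6a (transcript cluster 10526069), the zeta subunit, read 9.57, 9.40 and 9.49 in the untreated arrays and 9.87, 10.33, 10.41 and 10.39 in the IL2 arrays. The groups did not overlap, and IL2 replicate 1 lay well below the other IL2 arrays. Cct6a rose by 0.76 (SE 0.14, limma adjusted p = 0.0344). Cct3, the gamma subunit, had the largest difference of the cytosolic genes. It read 9.13, 8.28 and 8.28 in untreated and 9.25, 9.95, 10.02 and 10.08 in IL2 arrays, a log2 difference of 1.26 (SE 0.27) that did not pass the test (limma adjusted p = 0.0584). Untreated replicate 2 was high and IL2 replicate 1 low, so that these arrays nearly met. The smallest difference was in Cct4, the delta subunit. It read 10.38, 10.35 and 10.18 against 10.38, 10.57, 10.41 and 10.56, a log2 difference of 0.18 (SE 0.09, limma adjusted p = 0.489). The highest untreated and the lowest IL2 value of Cct4 were equal.

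The other chaperonin genes lay between these. Cct8 (theta subunit), Cct7 (eta) and Cct5 (epsilon) had log2 fold changes of 0.92, 0.78 and 0.55 with IL2 arrays all above untreated arrays, as had Tcp1 (alpha) with 0.43. Cct2 (beta) had 0.37 with overlapping groups. Limma adjusted p-values of these 5 genes ran from 0.0695 for Cct7 to 0.473 for Cct2. Log2 fold changes of the subunits thus ran from 0.18 to 1.26, and the 95% interval of Cct4 (-0.03 to 0.39) did not reach that of Cct3 (0.63 to 1.89). The difference between the subunits was not tested.

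Among the 8 measured genes of the cytosolic HSP70 and HSP90 systems, Stip1 and Hsp90aa1 rose. Stip1 (10465604) encodes HOP, the adaptor that hands substrates from HSP70 to HSP90. It read 9.22, 8.66 and 9.02 in untreated and 9.71, 9.88, 9.87 and 9.80 in IL2 arrays. The IL2 arrays agreed closely and all lay above the untreated ones. Stip1 rose by 0.85 (SE 0.13, limma adjusted p = 0.0172), a fold of 1.80. Hsp90aa1 (10378848), the stress-inducible cytosolic HSP90, read 9.89, 10.16 and 9.72 against 10.37, 10.62, 10.63 and 10.52. It rose by 0.61 (SE 0.12, limma adjusted p = 0.0426), and its other 2 probes, at 0.56 and 0.57, also had all IL2 arrays above. Its call ended with the mean of its probes (limma adjusted p = 0.0713), after quantile normalization again (0.0859) and with a trended, robust variance model (0.0533).

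Hspa8, the constitutive cytosolic HSP70 and the brightest of these genes, read 12.40, 12.03 and 12.18 in untreated and 12.61, 12.66, 12.64 and 12.58 in IL2 arrays. Its groups were apart, with little spread among IL2 arrays, but its log2 fold change of 0.42 (SE 0.10) did not pass the test (limma adjusted p = 0.0717). Its 3 probes gave 0.42, 0.50 and 0.44. Hsph1, the HSP110 exchange factor for HSP70, had 0.96 (limma adjusted p = 0.0751) with the groups apart. Its relative Hspa4 had 0.47, with the lowest IL2 array level with the highest untreated array. Ahsa1, the activator of the HSP90 ATPase, had 0.62, and the J-domain genes Dnaja1 and Dnajb1 had 0.40 and 0.36. In these 3 genes the groups overlapped. The second, dimmer probe of Dnaja1 gave -0.00, and the mean of its probes gave 0.20. Which of these probes reads Dnaja1 itself, and not a near-identical copy, was not checked. Dnajb1 was -0.07 in the arrays whose titles do not give the time.

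Of the 6 mitochondrial genes, Hspd1 rose and 0 fell. Hspd1 (10375240) encodes HSP60, the barrel of the mitochondrial chaperonin. It read 8.62, 8.59 and 8.95 in untreated and 9.43, 9.70, 9.95 and 10.07 in IL2 arrays. The lowest IL2 array was 0.48 above the highest untreated array. Hspd1 rose by 1.07 (SE 0.17, limma adjusted p = 0.0172), a fold of 2.10, and its second, dimmer probe gave 1.63 with the groups also apart. The genomic positions of these probes were not checked. Which of them reads Hspd1 itself, and not a near-identical copy, is therefore not known. Hspe1 encodes HSP10, the lid of the same chaperonin. It read 9.18, 9.57 and 9.22 against 9.57, 10.01, 10.05 and 10.23, a log2 difference of 0.64 (SE 0.17, limma adjusted p = 0.118). Untreated replicate 3 and IL2 replicate 1 had the same value.

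Hspd1 and Hspe1 lie head to head on chromosome 1 and share a promoter, so their sequence is shown beside their values. In RefSeq (GRCm38.p6) a start of Hspd1 on the minus strand lies at position -216 from that of Hspe1 on the plus strand, and another Hspd1 start lies 95 bases beyond it. Between the first pair lie overlapping matches to the heat shock element, the binding site of heat shock factors. It was searched on both strands as 3 alternating units of GAA and TTC, each 2 bases apart, starting with either unit, and these forms can overlap each other. The stretch is given 5′ to 3′ on the strand of Hspe1 at chr1:55088053-55088082, and the capitals mark the letters matched.
Hspe1: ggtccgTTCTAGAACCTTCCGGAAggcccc
The window searched ran from 250 bases before to 50 bases after each start. Windows were found for 33 of the 39 members (13 cytosolic, 5 mitochondrial and 15 ER genes). The heat shock element occurred in the windows of Hspd1 and Hspe1, in those of the cytosolic gene Hsph1, in 0 of 15 ER windows, and in 0.603% of all 32851 windows in the table. A match is a description of letters and not a bound site.

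Hspa9 encodes mortalin, the mitochondrial HSP70 that pulls imported protein into the matrix. It read 9.13, 8.94 and 9.36 in untreated and 9.55, 9.88, 10.14 and 10.28 in IL2 arrays. The groups were apart, and the log2 fold change of 0.82 (SE 0.19) did not pass the test (limma adjusted p = 0.0696). Trap1, the mitochondrial HSP90, read 8.72, 8.15 and 8.78 against 8.69, 8.78, 9.10 and 9.25, with overlapping groups and a log2 difference of 0.40 (SE 0.20, limma adjusted p = 0.454). The J-domain gene Dnaja3 had 0.36 with the groups apart. Grpel1, the nucleotide exchange factor of mortalin, had the smallest difference, 0.09 (SE 0.17, limma adjusted p = 0.894). It read 8.03, 8.03 and 8.00 in untreated and 7.67, 8.03, 8.40 and 8.36 in IL2 arrays, so that IL2 replicate 1 lay below every untreated array. The sign of Grpel1 turned after quantile normalization again (-0.02), without IL2 replicate 3 (-0.00) and in the arrays whose titles do not give the time (-0.18).

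Of the 17 ER genes 4 rose (2.08% of all genes, and 5.42% of genes as bright), and 15 were higher at an unadjusted limma p under 0.05 (8.81% and 20.9%). Without untreated replicate 3 or 4, as without IL2 replicate 2, 3 or 4, 0 ER genes were called by limma. Hspa5 (10471586) encodes BiP, the ER HSP70 and the classical readout of the unfolded protein response. It read 10.69, 10.12 and 10.35 in untreated and 10.94, 11.40, 11.47 and 11.44 in IL2 arrays. The groups were apart, with IL2 replicate 1 nearest to the untreated arrays. Hspa5 rose by 0.92 (SE 0.18, limma adjusted p = 0.0370), a fold of 1.90. Sdf2l1 (10438098), a partner of BiP in a complex with J-domain proteins, read 8.54, 8.29 and 8.64 against 8.995, 9.42, 9.69 and 9.72. It rose by 0.97 (SE 0.19, limma adjusted p = 0.0384), a fold of 1.95. Hsp90b1, which encodes GRP94, the ER HSP90, read 10.53, 10.26 and 10.03 against 10.73, 11.18, 10.95 and 11.10. Its groups were apart and its log2 fold change was 0.72 (SE 0.15), just short of the test (limma adjusted p = 0.0502). Hyou1, an exchange factor for BiP, had 1.03, and the J-domain co-chaperone genes Dnajc3 and Dnajb11 had 0.69 and 0.68. In all 6 genes of this BiP and GRP94 system the IL2 arrays lay above the untreated arrays, and the adjusted p ran from 0.0370 to 0.0922.

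The ER stress element, through which ATF6 and XBP1 act together with the CCAAT-binding factor NF-Y, links several of these promoters, and it was described in part from these same genes. Searched on both strands as CCAAT and CCACG with 9 bases of any kind between them, it occurred in the windows of 7 of 15 ER members (Hspa5, Hsp90b1, Calr, Canx, Pdia6, Dnajc3 and Creld2). That is 46.7% of their windows, against 0.119% of all windows in the table. It was in 0 of 13 cytosolic and 0 of 5 mitochondrial members with a window. Hsp90b1 held 2 matches. The letters are shown in capitals, 5′ to 3′ on the strand of each gene (RefSeq, GRCm38.p6), so that a match on the opposite strand reads as CGTGG followed by ATTGG. For Hspa5 the whole 250 bases before the start are given (chr2:34771840-34772089, plus strand), and for the others the match with 20 bases on each side.
Hspa5: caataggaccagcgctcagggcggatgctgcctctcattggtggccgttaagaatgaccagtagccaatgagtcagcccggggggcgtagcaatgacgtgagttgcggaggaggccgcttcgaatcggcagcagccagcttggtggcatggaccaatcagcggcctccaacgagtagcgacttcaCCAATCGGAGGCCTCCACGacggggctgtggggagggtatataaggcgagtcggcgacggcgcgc
Hsp90b1, distal match at chr10:86705618-86705676, minus strand: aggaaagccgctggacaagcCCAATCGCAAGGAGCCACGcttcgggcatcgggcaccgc
Hsp90b1, proximal match at chr10:86705513-86705571, minus strand: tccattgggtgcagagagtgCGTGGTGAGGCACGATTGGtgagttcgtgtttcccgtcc
Calr at chr8:84847055-84847113, minus strand: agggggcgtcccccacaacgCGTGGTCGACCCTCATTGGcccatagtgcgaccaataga
Canx at chr11:50325780-50325838, minus strand: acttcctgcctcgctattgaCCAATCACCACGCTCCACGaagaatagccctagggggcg
Pdia6 at chr12:17266471-17266529, plus strand: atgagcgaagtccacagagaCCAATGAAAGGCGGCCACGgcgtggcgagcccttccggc
Dnajc3 at chr14:118937807-118937865, plus strand: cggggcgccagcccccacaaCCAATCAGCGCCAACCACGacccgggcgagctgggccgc
Creld2 at chr15:88819500-88819558, plus strand: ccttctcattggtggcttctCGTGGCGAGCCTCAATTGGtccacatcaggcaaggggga

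The 7 genes with this element had a median log2 fold change of 0.72, from 0.28 for Canx to 1.30 for Creld2, with 1 of them called. The 8 ER genes with a window but no exact match had a median of 0.59, with 2 called. This split was made with the values known and was not tested. A shorter form, ATTGG and CCACG with 1 base between them, occurred in the windows of Herpud1 and Dnajb11 and in 0.0365% of all windows. The Herpud1 stretch is shown because this gene had the element but the smallest difference of all members (chr8:94386357-94386407, plus strand).
Herpud1: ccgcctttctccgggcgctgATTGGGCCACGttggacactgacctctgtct
Of the other motifs searched, the XBP1 core TGACGTG was in 1 ER window (Hspa5) and 2.01% of all windows, and the E-box CACGTG, bound by MYC, in 1 gene of each compartment and 7.15% of all windows. The NF-Y box CCAAT, which is part of the longer ER stress element, was in 13 of 15 ER windows, 52.6% of the cytosolic and 50% of the mitochondrial windows, and 37.4% of all.

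Of the lectin chaperones and disulfide isomerases of the ER, Pdia4 rose. Pdia4 (10544525), a disulfide isomerase found in complexes with BiP, read 9.95, 9.59 and 9.59 in untreated and 10.20, 10.70, 10.49 and 10.38 in IL2 arrays. The groups were apart by 0.25, and Pdia4 rose by 0.73 (SE 0.14, limma adjusted p = 0.0406). Pdia6, a further isomerase, had 0.93 (limma adjusted p = 0.0749) and P4hb, which encodes the founding protein disulfide isomerase, had 0.61 (0.168), both with the groups apart. Calr and Canx encode calreticulin and calnexin, lectins that hold glycoproteins while they fold, and Pdia3 their partner isomerase ERp57. Calr had 0.67 with the groups apart (limma adjusted p = 0.0530). The membrane-bound Canx had 0.28 and Pdia3 had 0.57, with IL2 replicate 4 as the lowest IL2 array and the groups not apart.

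The remaining ER genes held both ends of the range. Creld2, a secreted ER stress protein with isomerase activity, had the largest difference of all 39. It read 9.15, 7.89 and 8.58 in untreated and 9.58, 10.04, 9.96 and 9.77 in IL2 arrays, a fold of 2.46 (log2 fold change 1.30, SE 0.27). The untreated arrays were spread over more than the gap between the groups, and it did not pass the test (limma adjusted p = 0.0513). Manf (10596575), a small ER stress-induced secreted factor, rose less but with less spread. It read 7.76, 7.67 and 7.59 against 8.08, 8.37, 8.08 and 8.21 and rose by 0.51 (SE 0.10, limma adjusted p = 0.0378). The call of Manf ended after quantile normalization again (limma adjusted p = 0.0634), with a trended, robust variance model (0.0538) and when any single array except IL2 replicate 1 was left out (0.0571 to 0.132). Xbp1, the transcription factor spliced by IRE1, had 0.48 (limma adjusted p = 0.0677) with the groups apart. These arrays do not separate its spliced from its unspliced form.

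Herpud1, which serves ER-associated degradation, and Sec61b, a subunit of the protein-conducting channel, had the smallest differences of the ER genes. Like Xbp1, neither encodes a chaperone. Herpud1 read 9.72, 9.60 and 9.64 against 9.55, 9.63, 9.63 and 9.84, a log2 fold change of 0.01 (95% interval -0.20 to 0.22). Sec61b had 0.06 (-0.12 to 0.24), and 3 of its 4 IL2 values were equal. Both signs turned after quantile normalization again (-0.13 and -0.07). Equal values in at least 2 arrays occurred in 8 of the 39 members, in 0 of the 8 called ones and in 54.3% of all genes. In 4 of the 8 (Cct4, Hspe1, Trap1 and Pdia3) the equal values lay in different groups, and in Grpel1, Dnaja3, Herpud1 and Sec61b some lay within a group.

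Each compartment has its own HSP70 and HSP90, which allows the same machine to be set side by side. The HSP70 genes had log2 fold changes of 0.42 (95% interval 0.20 to 0.65) for cytosolic Hspa8, 0.82 (0.39 to 1.25) for mitochondrial Hspa9 and 0.92 (0.52 to 1.33) for Hspa5 of the ER. The HSP90 genes had 0.61 (0.33 to 0.90) for Hsp90aa1, 0.40 (-0.05 to 0.86) for Trap1 and 0.72 (0.37 to 1.06) for Hsp90b1. The intervals overlapped within each family. Calls on Hsp90aa1 and Hspa5 beside none on their relatives do not show that the relatives differed from them.

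The arrays of a group were ordered in much the same way across the 39 genes. IL2 replicate 1 was the lowest IL2 array in 31 of 39 members (79.5%), against 37.6% of all genes, and was the highest in 0, against 24.1%. IL2 replicate 4 was the highest in 22 (56.4%, against 32.9% of all genes). Among untreated arrays, replicate 3 was the lowest in 25 members (64.1%, against 33% of all genes) and replicate 2 the highest in 25 (64.1%, against 23.4%). The 75th percentile of array intensity was lowest in IL2 replicate 1 (291.4) among IL2 arrays and in replicate 3 (278.5) among untreated arrays. It was highest in IL2 replicate 4 (350.4). Its part in the order of the members was not tested. Relative to each gene's untreated mean, the median over the members was 0.40 in IL2 replicate 1 and 0.70, 0.68 and 0.71 in IL2 replicates 2, 3 and 4. It was 0.16, -0.13 and -0.02 in untreated replicates 2, 3 and 4. The mitochondrial genes differed a little in this, with medians of 0.22, 0.46, 0.64 and 0.80 in IL2 replicates 1 to 4 and no lead of untreated replicate 2. The macrophage and monocyte markers were also lowest in IL2 replicate 1 by their median (-1.75, against -1.63, -1.26 and -0.99 in replicates 2 to 4). So were the neutrophil markers (-1.27, against -0.97, -0.48 and -0.52) and the T cell and plasma cell markers. The NK cell markers were not (1.87, against 2.16, 1.41 and 1.49), nor were the B cell, dendritic cell and erythroid markers.

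**Figure D2:**
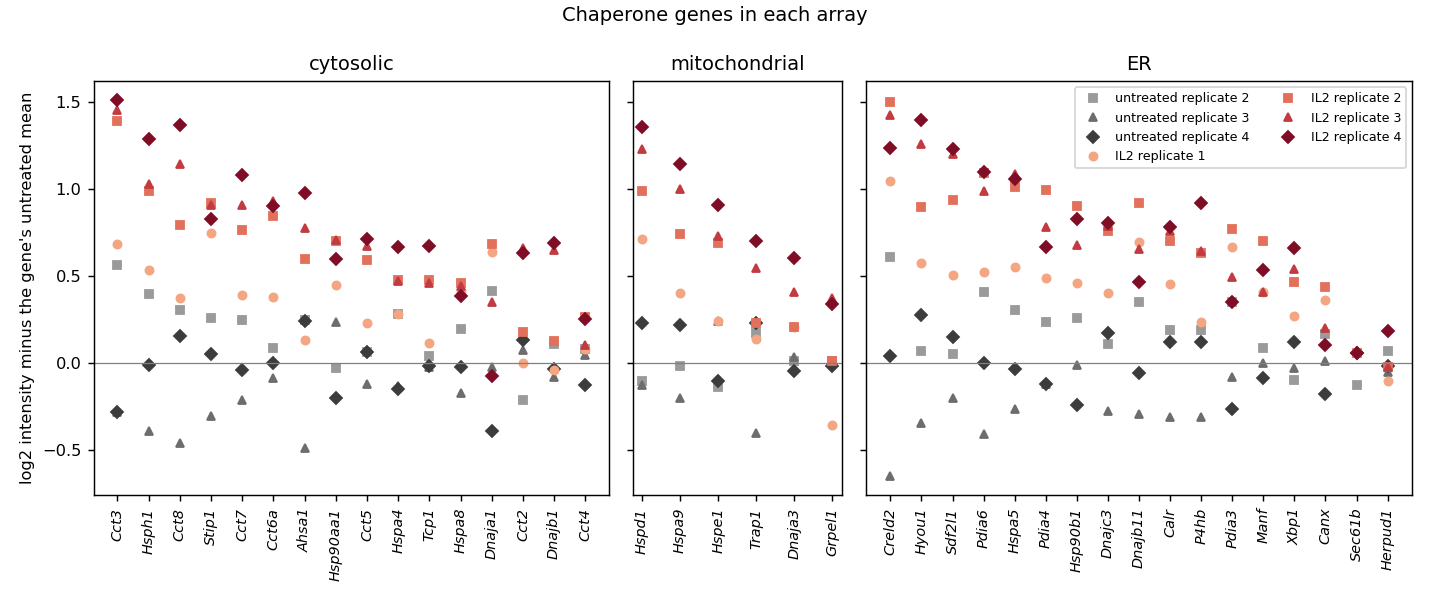
Log2 intensity of each member in each of the 7 arrays, minus the mean of the gene's 3 untreated arrays; grey symbols are untreated and red symbols IL2 arrays, with genes ordered by log2 fold change within each compartment. IL2 replicate 1 (pale circles) is the lowest IL2 array in 31 of 39 genes, and untreated replicate 2 (pale squares) the highest untreated array in 25.

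Sample titles name the time for replicates 3 and 4 and not for replicates 1 and 2, a possible mark of separate experiments. Within the 4 arrays with the time the medians were 0.72 for the cytosolic, 0.73 for the mitochondrial and 0.85 for the ER genes. Within the 3 without it, of which 1 was untreated, they were 0.29, 0.39 and 0.46. The fold change was larger in the arrays with the time for 38 of 39 members, Sec61b being the exception, and it was positive for 38 in one set and 36 in the other. The share of all genes with a larger fold change there was not counted. The set without the time holds untreated replicate 2, the highest untreated array in 25 members, and IL2 replicate 1, the lowest IL2 array in 31. The count of 38 is thus not independent of that order of the arrays. The widest differences between the sets were in Cct3 (1.76 with the time and 0.47 without), Cct8 (1.41 and 0.28), Hsph1 (1.36 and 0.36) and Creld2 (1.63 and 0.66). Hsp90aa1 (0.64 and 0.60), Canx (0.24 and 0.23) and Manf (0.52 and 0.47) were close. Within the arrays with the time 1 member was called, Cct3 (limma adjusted p = 0.0399), which is not among the 8 called over all arrays. Within the others 0 were, where limma called 0 of all genes and 2630 were at an unadjusted p under 0.05. Over all genes 81 (0.41%) were higher in the arrays with the time. With title style as a factor in the fit of all arrays 15 members were called higher, with 579 of all genes (2.93%). The difference between the sets was not tested.

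**Figure D3:**
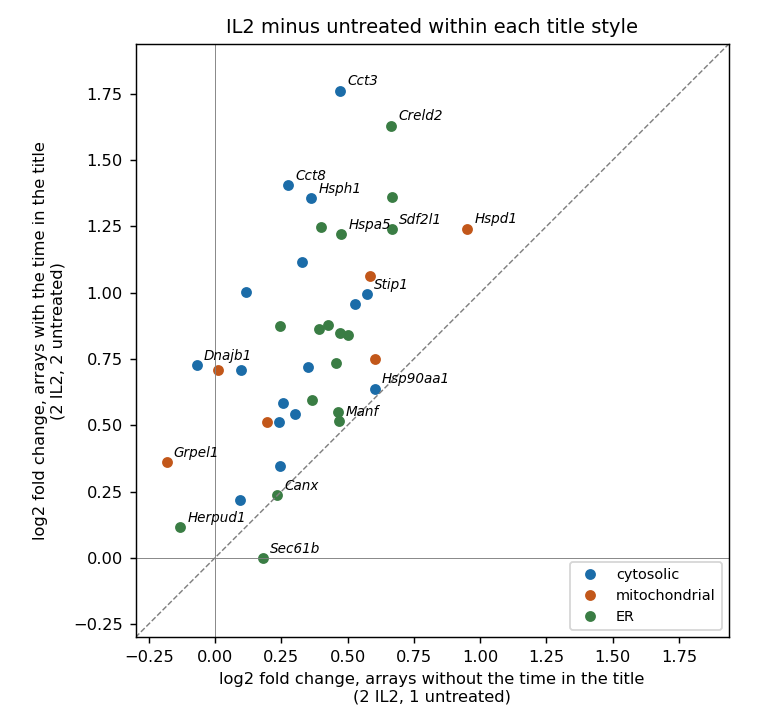
Log2 fold change of each member within the 4 arrays whose titles give the time (vertical axis) against that within the 3 arrays whose titles do not (horizontal axis, 1 untreated array); the dashed line marks equal values. All points but that of Sec61b lie above the line.

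Lists of other genes from the same pathways had smaller median differences. Of 68 further ER genes (translocon, glycosylation, degradation and folding), 4 rose and 0 fell, with a median log2 fold change of 0.17. This count is near the 5.42% of genes at least as bright as the dimmest chaperone member, a filter not applied to this list, and over all genes the share was 2.08%. At an unadjusted limma p under 0.05, 22 of the 68 were higher and 2 lower. Of the 4 that rose, Ddost (0.74, SE 0.14), Stt3a (0.61, SE 0.12) and Dad1 (0.57, SE 0.11) encode subunits of the oligosaccharyltransferase, which attaches N-glycans. Ssr2 (0.67, SE 0.13) encodes a subunit of the translocon-associated complex. Their limma adjusted p-values were 0.0370, 0.0464, 0.0362 and 0.0353. Ero1a, the oxidase that RefSeq also lists under the older symbol Ero1l, had 0.08 (SE 0.19, limma adjusted p = 0.917). Of 35 further mitochondrial genes (import, proteases and prohibitins) 0 were called by limma, with 15 higher and 0 lower at an unadjusted p under 0.05 and a median of 0.29. The largest was 0.80 for Timm17a (SE 0.18, limma adjusted p = 0.0696), of the inner membrane translocase. Of 55 further cytosolic chaperones and co-chaperones 0 were called by limma, with 13 higher and 0 lower at an unadjusted p under 0.05 and a median of 0.17. At that unadjusted p 8.81% of all genes, and 20.9% of those as bright as the members, were higher, and 4.67% and 8.27% were lower. The largest was 0.84 for Ppp5c (SE 0.20, limma adjusted p = 0.0829), a phosphatase that binds HSP90.

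**Figure D4:**
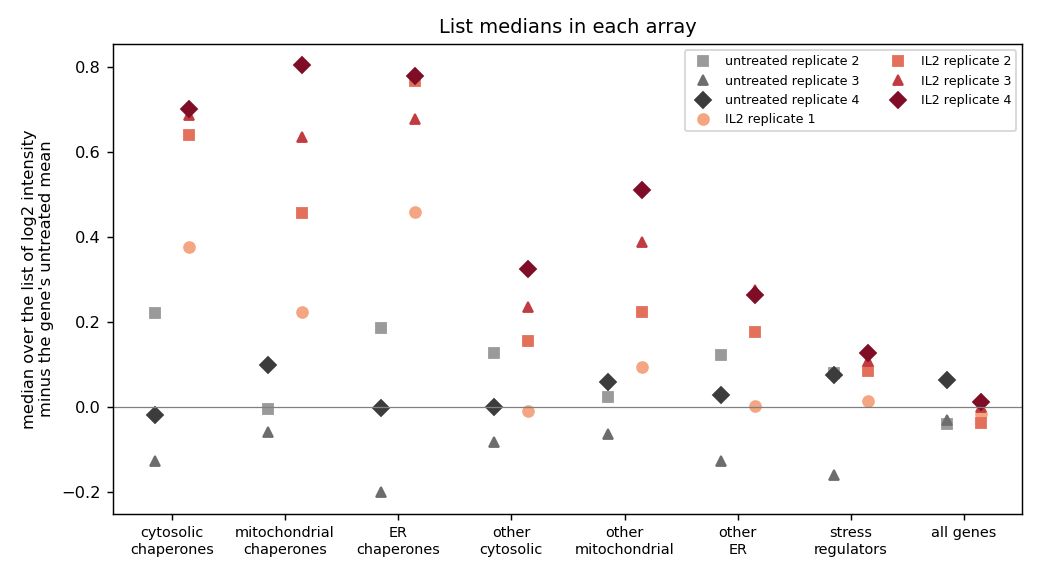
Median over each gene list of the log2 intensity minus the gene's untreated mean, in each of the 7 arrays. In the cytosolic, mitochondrial and ER chaperone lists and in the other mitochondrial list, every IL2 array lies above every untreated array. For the other mitochondrial list the gap is narrow (0.09 in IL2 replicate 1 against 0.06 in untreated replicate 4). In the other cytosolic and other ER lists IL2 replicate 1 lies among the untreated arrays.

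Of 19 measured regulators of these pathways 1 rose and 0 fell (2.08% and 0.901% of all genes), with a median log2 fold change of 0.09. At an unadjusted limma p under 0.05, 2 were higher (Myc and Atf6) and 1 lower (Eif2ak3), against 8.81% and 4.67% of all genes. The one that rose was Myc, a growth factor-induced transcription factor, by 2.14 (SE 0.19, limma adjusted p = 0.00153). The stress sensors and factors had log2 fold changes of 0.29 for Atf6 (limma adjusted p = 0.256), 0.20 for Ern1, which encodes IRE1 (0.746), -0.43 for Eif2ak3, which encodes PERK (0.311), and 0.09 for Atf4 (0.673). Ddit3, the CHOP factor of prolonged ER stress, had -0.12 (limma adjusted p = 0.786), with values of 7.99, 7.80 and 7.82 in untreated and 8.03, 7.80, 7.57 and 7.61 in IL2 arrays. The heat shock factor gene Hsf1 was not analysed here. These values are of RNA and carry nothing on the splicing, cleavage or phosphorylation by which the sensors act.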

How the data were processed

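RNA of 7 samples (4 IL2, 3 untreated, grouped by their titles) was measured on 1-colour arrays. The authors deposited linear intensity values per transcript cluster, for which the submitters' processing notes name RMA and Affymetrix Power Tools. Versions, genome build and the set of arrays normalized together are not given in the sources used here. RMA evens out the distributions of arrays normalized together, so a shift shared by most genes can be lost. The deposited values still differed between arrays, with a 75th percentile of 278.5 to 350.4. The number of arrays limits the precision.

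Here log2 was taken with no offset. Of 24922 probes, 21425 had 1 gene symbol in the platform annotation, 1399 several and 2098 none, and the brightest single-symbol probe stood for each of 19752 genes, with no signal filter. Limma 3.58.1 (R 4.3.3; lmFit, eBayes, 7.68 total degrees of freedom) compared IL2 with untreated over all genes, with Benjamini-Hochberg correction. SE and 95% intervals are those of this fit. The fit was run on simulated data to see that a known change was recovered on average, and its SE and intervals were not checked there. Motifs were searched in RefSeq promoter windows.

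The members, lists, motifs and the rule for named genes were chosen with earlier results of these data known. Values are printed in full for called members (at most 8 per compartment), the HSP70 and HSP90 genes, and the largest and smallest change of each compartment. Hspe1 and Ddit3 were added after their values were seen. In each further list the called genes are named, at most 4, or else the largest change, with some regulators always. Of the other marker lists fixed, 0 of 7 T cell, 0 of 6 plasma cell, 0 of 6 dendritic cell and 0 of 4 erythroid genes were called by limma; at an unadjusted p under 0.05, 0, 0, 1 and 0 were higher and 0, 1, 2 and 0 lower. Of non-member symbols, 4 were updated through RefSeq synonyms. A planned comparison of protein sequences was not run. Probes of chaperone genes may also bind transcripts of near-identical copies, and the genomic positions of the probes were not checked.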

Additional observations from a re-analysis of the deposited data

Results flagged for a closer look

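In each of the 39 chaperone genes the 4 IL2 arrays were searched for 1 array far from the rest, measured as the gap to its nearest neighbour over the range of the group, against Dixon's 95% critical value. This marked 5 genes, where about 1 in 20 such groups would be marked by chance, and the genes are not independent. In 4 of them the array was IL2 replicate 1, which was lowest. Its level was 9.25 for Cct3 (next array 9.95), 9.87 for Cct6a (next 10.33), 10.94 for Hspa5 (next 11.40) and 8.89 for Dnajc3 (next 9.24). In Sec61b it was IL2 replicate 3, at 8.62, where the other 3 IL2 arrays all held 8.60, a gap of 0.015.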

How the results depend on the processing

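The 7 arrays and their spread limit what can be called, and 16 other settings were tried. The counts of cytosolic, mitochondrial and ER members higher (3, 1 and 4) were 8, 2 and 10 after quantile normalization again, 4, 2 and 10 with arrays centred on their medians, and 7, 2 and 12 when genes below the median signal were dropped before the fit. The share of all genes tested that were higher also grew in these settings. It was 3.7%, 2.53% and 5.85% (of the 9876 genes kept), against 2.08% in the main fit. They were 4, 3 and 8 with title style as a factor, 1, 0 and 0 over the arrays with the time in the title and 0, 0 and 0 over the others. Over all genes, 730 were higher and 628 lower after quantile normalization again, 81 and 22 over the arrays with the time, and 0 and 0 by limma over those without it, with 2630 at an unadjusted p under 0.05. With each array left out in turn the counts ranged from 0 to 8 (cytosolic), 0 to 3 (mitochondrial) and 0 to 10 (ER), and from 134 to 517 higher and 65 to 152 lower over all genes. No member was lower in any setting. The median log2 fold changes moved beyond the spread between arrays only over the arrays without the time for the cytosolic (0.29) and ER genes (0.46) and over those with it for the mitochondrial genes (0.73).

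The replicate number as a block gave 7, 3 and 10 members higher, with 20 in all against 8, and 554 of all genes higher (2.8%) against 410. Manf lost its call in that fit (limma adjusted p = 0.0522). Deviations of same-numbered arrays correlated at 0.46, -0.30 and 0.31 for numbers 2, 3 and 4. Untreated replicates 2 and 4 correlated best with their own number, and untreated replicate 3 with IL2 replicate 1 (0.45). No label says whether the numbers pair the arrays, and these few correlations cannot decide it. IL2 replicate 1 has no partner and drops out of that fit's contrast.

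Signs turned for 4 members, none of them called. Grpel1 was -0.0226 after quantile normalization again, -0.18 over the arrays without the time and between -0.0027 and 0.24 with 1 array left out. Herpud1 was -0.1292, -0.1308 and between -0.0483 and 0.0463 in the same settings. Sec61b was -0.0695 after quantile normalization again, -0.0006 over the arrays with the time and between -0.0043 and 0.0945 with 1 left out, and Dnajb1 was -0.069 over the arrays without the time. Leaving out IL2 replicate 2, 3 or 4 ended each of the 8 calls (limma adjusted p from 0.0566 to 0.151). The cause was not tested. Quantile normalization was run over the genes tested.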
